A study of Phalaenopsis aphrodite subsp. formosana with 4 samples.

Results

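The unique small RNA sequences of 23, 24 or 25 nucleotides (nt) that the deposited tables match to known plant miRNAs are described here, and they are called long sequences. They were chosen by length alone, from all sequences of 18 to 27 nt that matched a miRNA in any library. This gave 1903 of 11129 unique sequences (17.1%), but only 9019 of 1002362 matched reads (0.900%). A family is the set of sequences whose matched miRNA carries the same number, such as miR167, and the family names below come from that match and not from a test of function in the orchid.

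The study sequenced small RNA of the moth orchid Phalaenopsis aphrodite subsp. formosana, in which a period at low ambient temperature brings on the flower stalk. The 4 libraries were flower buds (FB), collected at month 3.5, flower stalks (S), collected at months 1.5 to 2, leaves kept at low temperature (CL) and leaves of untreated plants (NL), both collected over months 0 to 2. The light and dark temperatures were 24 and 18°C for the plants of FB, S and CL, against 32 and 27°C for those of NL. Each library was 1 pool of RNA cut from a gel at 20 to 25 nt, so there are no replicates: every interval below is a 95% counting interval, ratios compare libraries and not conditions, and no p-value is given. Because PCR copies one molecule into many reads, the intervals cover counting error only. Organ and time of collection cannot be told apart in FB and S.

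Plant miRNAs are cut from hairpin transcripts, mostly as duplexes of 21 nt, and a few families give 22 nt forms. Most plant small RNAs of 24 nt are instead small interfering RNAs made by another Dicer-like enzyme, many of which begin with adenine and guide DNA methylation, and in rice some hairpins also give miRNAs of that length. A longer read of a miRNA family can arise from a cut at another position of the hairpin or from bases added to the 3′ end after cutting, and where a genome is at hand the origin of the extra bases can be looked up. Here no genome was used, so whether the extra bases are encoded in the hairpin was not tested.

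Long sequences from 8 of the families named below are shown first, because they show which end of the miRNA is longer. Each is printed 5′ to 3′ as the files give it, with T for U, and capitals mark the bases beyond the most read 21 nt sequence of the same family that it holds unbroken. A long sequence with no capitals holds no such 21 nt sequence.
miR894, 24 nt: GTTcgtttcacgtcgggttcacca
miR894, 23 nt: TTcgtttcacgtcgggttcacca
miR894, 25 nt: GTGttcgtttcacgtcgggttcacC
miR167, 23 nt, AA end: tgaagctgccagcatgatctgAA
miR167, 23 nt, AT end: tgaagctgccagcatgatctgAT
miR167, 24 nt, TTC end: tgaagctgccagcatgatctgTTC
miR528, 23 nt: tggaaggggcatgcagaggagAT
miR162, 23 nt: tcgataaacctctgcatccggTT
miR535, 23 nt: tgacaacgagagagagcacgcTT
miR172, 24 nt: AATgagaatcttgatgatgctgca
miR1023, 24 nt: agaagacattgaagagagagcata
miR1171, 24 nt: tgtggagaggagtggagaggagtg

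The main shorter forms of the same families are shown for comparison, with the seed (bases 2 to 8 from the 5′ end, the stretch that weighs most in pairing with a target) in capitals. A 3′ extension leaves the seed in place, and a 5′ extension moves it.
miR894, 21 nt: cGTTTCACgtcgggttcacca
miR894, 20 nt: gTTTCACGtcgggttcacca
miR167, 21 nt, inside the long forms: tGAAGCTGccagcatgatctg
miR167, 22 nt: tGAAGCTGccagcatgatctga
miR167, 21 nt, most read: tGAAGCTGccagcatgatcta
miR528, 21 nt: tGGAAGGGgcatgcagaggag
miR162, 21 nt: tCGATAAAcctctgcatccgg
miR535, 21 nt: tGACAACGagagagagcacgc
miR172, 21 nt, most read: aGAATCTTgatgatgctgcat
miR172, 21 nt, inside the long form: gAGAATCTtgatgatgctgca

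The long sequences were many and mostly rare. Of the 1903, 681 were of 23 nt with 4705 reads, 1061 of 24 nt with 3865 reads and 161 of 25 nt with 449 reads. Just outside the length limits, 1248 sequences of 22 nt held 101081 reads and 57 sequences of 26 nt held 76 reads. Reads per sequence thus dropped sharply between 22 and 23 nt. A single read was all that 1418 long sequences (74.5%) had, against 57.4% of the 21 nt sequences, and 1514 were found in 1 library. Only 17 reached 50 reads over the 4 libraries. The 10 most read long sequences held 52.3% of the long reads, and the 77 found in all 4 libraries held 66.6%.

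Long reads were fewest per clean read in the flower organs. They numbered 1102 in FB, 1831 in S, 3220 in CL and 2866 in NL. In RPM (reads per 1e+06 clean reads, which are the reads left after the authors' cleaning), their level was 174 (164–185) in FB, 228 (218–239) in S, 435 (420–450) in CL and 398 (384–413) in NL. The 4 intervals did not overlap, and CL and NL were the closest neighbours. As a share of each library's matched reads, the order was another: 0.415% (0.392–0.440) in FB, 1.73% (1.65–1.81) in S, 0.796% (0.769–0.824) in CL and 1.27% (1.22–1.31) in NL. The share was lowest in FB, as the level was, but highest in S, where all matched reads together were scarce.

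The ratio between libraries depends on this choice of scale, and both are given. Long reads were 1.09-fold (1.04–1.15) in CL relative to NL per clean read, but 0.629-fold as a share of matched reads, so this direction turned. They were 0.525-fold (0.495–0.556) in S relative to CL per clean read and 2.17-fold as a share of matched reads, again with the direction turned. FB relative to CL was 0.401-fold (0.374–0.429) per clean read and 0.522-fold as a share, lower on both scales. Among sequences with at most 1 mismatch or gap to the known miRNA, the ratios per clean read were further from 1, at 0.0520 in S and 0.149 in FB relative to CL. Without miR167 they were 0.766 and 0.572. Sequences of 21 nt behaved differently per clean read. They were 1.95-fold in CL relative to NL, 0.259-fold in S relative to CL and 0.855-fold in FB relative to CL. Relative to matched reads these ratios became 1.12, 1.07 and 1.11. Sequences of 21 nt held 76.3% of all matched reads, so ratios on that scale are kept close to 1.

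For every 1000 reads of 21 nt there were 4.95 long reads in FB, 21.4 in S, 10.6 in CL and 18.9 in NL. The odds of a read being long and not of 21 nt were 0.560 (0.532–0.589) in CL relative to NL, 2.03 (1.91–2.15) in S relative to CL and 0.469 in FB relative to CL. Set against reads of 22 nt in place of 21 nt, the same 3 odds were 0.940, 11.4 and 2.93, so the direction for FB relative to CL depends on which shorter length is used. Reads of 22 nt were 0.0460-fold in S and 0.137-fold in FB relative to CL per clean read. Over the 4 libraries most of them belonged to miR167, but in S that family had 875 of the 2516.

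**Figure D1:**
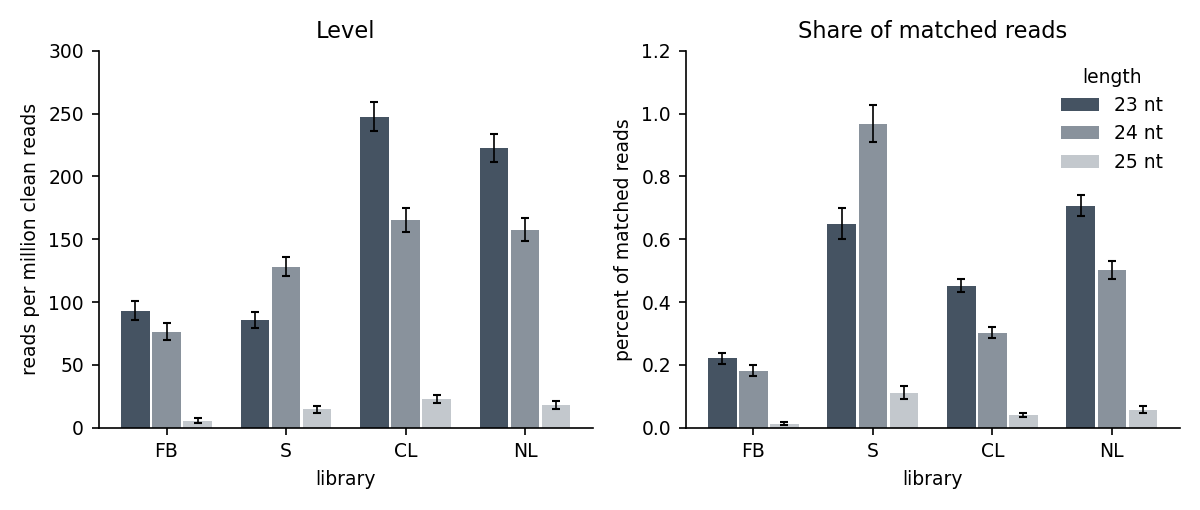
Level of matched sequences of 23, 24 and 25 nt in the FB, S, CL and NL libraries, in RPM (left) and as a percentage of all matched reads (right), with 1 library per bar and 95% counting intervals. Per clean read the 24 nt level was 76.3 in FB, 128 in S, 165 in CL and 158 in NL, while as a share of matched reads S is the highest at 24 nt, so the order of S and CL changes between the panels.

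The 3 lengths did not keep one pattern. The 24 nt length made up 43.7% (40.8–46.7) of long reads in FB, 56.0% (53.8–58.3) in S, 38.0% (36.3–39.6) in CL and 39.6% (37.8–41.4) in NL. Stalks were thus the library where 24 nt outnumbered 23 nt, which made up 53.2% in FB, 37.6% in S, 56.8% in CL and 55.9% in NL. Per clean read, 23 nt reads were 0.347-fold in S relative to CL and 24 nt reads 0.775-fold. Both turned when set against all matched reads, to 1.43-fold and 3.20-fold. Reads of 25 nt, at the upper edge of the gel cut, were 0.643-fold in S relative to CL per clean read and 2.65-fold relative to matched reads, so they turned as well.

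Most long reads, though not most long sequences, contained a 21 nt form. A sequence was counted as an extension when it held, without a break, a 21 nt sequence of the same family found in any library. This held for 581 of the 1903 sequences (30.5%) and for 6812 of the 9019 reads (75.5%). The extra bases lay only at the 3′ end in 347 sequences with 2940 reads, only at the 5′ end in 136 sequences with 3001 reads, and at both ends in 98 sequences with 871 reads. The remaining 1322 sequences, with 2207 reads, held no 21 nt form. That class took 12.1% of the 23 nt reads, 40.6% of the 24 nt reads and 15.1% of the 25 nt reads, so sequences with no 21 nt form were concentrated at 24 nt.

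The classes differed between libraries. The 3′ class had 47.0 RPM in FB, 24.3 in S, 188 in CL and 146 in NL, which put S and FB far below both leaf libraries. The 5′ class had 41.9 RPM in FB, 100 in S, 127 in CL and 137 in NL. The sequences with no 21 nt form were the most even, at 69.3 RPM in FB, 78.2 in S, 83.5 in CL and 72.8 in NL. In S relative to CL the 3′ class was 0.129-fold per clean read and 0.533-fold relative to matched reads, lower on both scales. The 5′ class was 0.788-fold and the class with no 21 nt form 0.937-fold, but these became 3.25-fold and 3.86-fold relative to matched reads. In FB relative to CL the 3 classes were 0.250-fold, 0.329-fold and 0.830-fold per clean read, and the last became 1.08-fold relative to matched reads.

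The class values rested largely on miR167 and miR894. Without both families, the 3′ class was 0.379-fold in S relative to CL per clean read and 1.56-fold relative to matched reads, so its direction turned. The 5′ class without them was 1.61-fold in S relative to CL per clean read and 6.66-fold relative to matched reads. This rested on miR172: without that family as well, the 5′ class was 0.529-fold (0.373–0.744) per clean read and 2.18-fold relative to matched reads. All long reads together without miR167 and miR894 were 1.27-fold in CL relative to NL, 0.841-fold in S relative to CL and 0.869-fold in FB relative to CL per clean read. These 3 ratios became 0.729, 3.47 and 1.13 (1.03–1.24) relative to matched reads, so each direction turned.

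**Figure D2:**
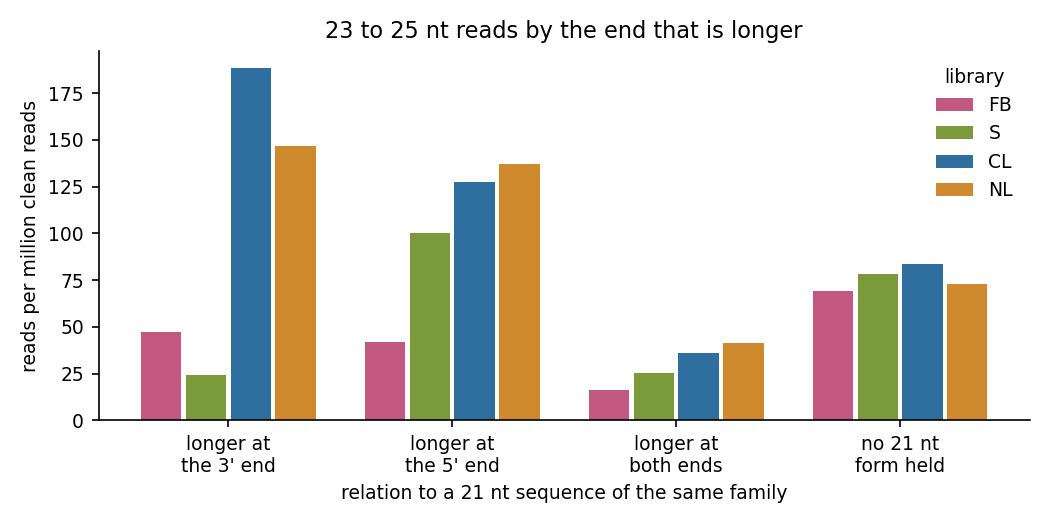
Reads of 23 to 25 nt in the FB, S, CL and NL libraries by where their extra bases lie relative to a 21 nt form of the same family, in RPM. The 3′ class sits at 24.3 in S against 188 in CL, whereas sequences with no 21 nt form lie between 69.3 and 83.5 in all 4 libraries.

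The bases added at the 3′ end were mostly U and A. Weighted by reads, most of which were miR167, 46.7% of the added bases of the 3′ class were U, 38.4% A, 10.5% C and 4.40% G. Over sequences, each counted once, the shares were closer to each other, at 35.5% U, 29.5% A, 16.3% C and 18.7% G. The commonest additions were AA with 22.8% of the reads of the class, AT with 22.4%, TT with 17.8% and TTC with 13.6%. Families had their own endings: AT (45.4%) and AA (23.4%) in miR528, TT (74.1%) in miR535, TT (64.2%) and TA (24.3%) in miR162. In miR168, C and G made up 36.9% and 35.1% of the added bases. By reads, 96.6% of the 3′ class also began with a 22 nt sequence of the same family.

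The long reads came from 250 of the 368 families found at any length, but 12 families with at least 100 long reads each held 7109 of them (78.8%). By contrast, 188 families had fewer than 10 long reads and 76 had a single one. The families miR894 and miR167 together held 5272 long reads, or 58.5%. Their joint share was 26.3% in FB, 45.5% in S, 66.0% in CL and 70.6% in NL. Other families thus gave most of the long reads in FB and S, but not in CL and NL.

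**Figure D3:**
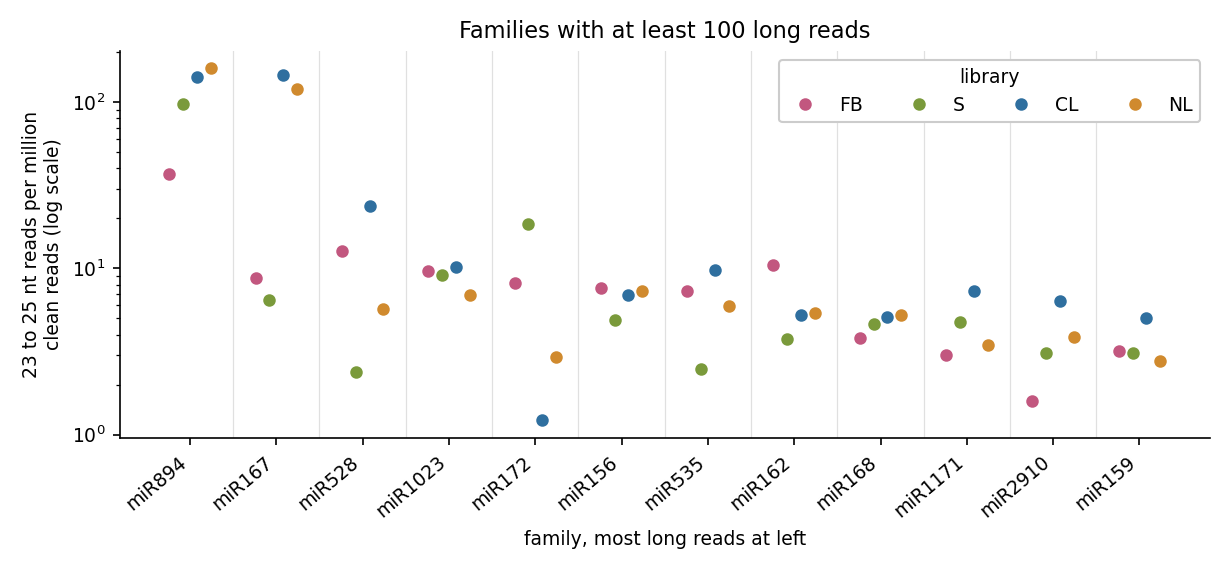
Long reads of the 12 families with at least 100 long reads, in RPM on a log axis, with 1 point per library (FB, S, CL and NL). In miR167 the FB and S points, at 8.71 and 6.49, lie far below CL at 145 and NL at 121, and in miR172 the FB and S points, at 8.23 and 18.6, lie above CL at 1.22 and NL at 2.92.

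The family miR894, first described in the moss Physcomitrella, had the most long reads. Its 74 long sequences had 235 reads in FB, 781 in S, 1050 in CL and 1154 in NL, or 37.2, 97.4, 142 and 160 RPM. Long reads were 12.8% of all miR894 reads. In CL relative to NL they were 0.886-fold per clean read and 0.510-fold relative to matched reads. In S relative to CL they were 0.687-fold and 2.83-fold, so this direction turned, and in FB relative to CL they were 0.262-fold and 0.341-fold. The 21 nt reads of the family kept pace with them in leaves and stalks but not in FB: the odds of a long against a 21 nt read were 1.06 in CL relative to NL and 0.990 in S relative to CL, but 0.432 in FB relative to CL. In FB the family was shifted to its short end, where 28.3% of its reads were of 18 nt, against 11.5% in S, 13.4% in CL and 13.3% in NL. This was not particular to miR894. The 18 nt share was also highest in FB in miR167, miR528, miR172, miR156, miR535, miR168 and miR159, though not in miR162 and miR2910. In miR159, for example, it was 39.1% in FB and 27.7% in CL. The study also counted more reads under 18 nt in FB than in any other library. Whether this bears on the low FB levels of long reads was not tested.

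By reads, 79.6% of the long miR894 forms were extended at the 5′ end alone. The 24 nt form GTTcgtttcacgtcgggttcacca had 95 reads in FB, 341 in S, 382 in CL and 417 in NL. The 23 nt form TTcgtttcacgtcgggttcacca had 72, 224, 399 and 410 reads in the same order. Both ended with the same bases as the 20 and 21 nt forms, cca, and differed from them in where the 5′ end lay. A CCA end was found in 79.5% of the long miR894 reads and 77.4% of its 21 nt reads, against 0.552% of all other long reads and 0.0243% of all other 21 nt reads. Families are set by their match to a known miRNA, so this contrast follows in part from the match. Mature tRNAs also end in CCA. Whether these reads come from a tRNA was not tested. A second end, 1 base shorter, closed 17.9% of the long miR894 reads, among them the 25 nt form GTGttcgtttcacgtcgggttcacC with 3 reads in FB, 41 in S, 68 in CL and 47 in NL. The 23 nt form GttcgtttcacgtcgggttcacC, with the same end, had 38 reads in FB, 71 in S, 101 in CL and 137 in NL. All of these forms were lowest in FB. A 25 nt form with the CCA end, TGTTcgtttcacgtcgggttcacca, was thin, with 6 reads in FB, 23 in S, 16 in CL and 28 in NL.

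The family miR167, which represses auxin response factor mRNAs in Arabidopsis and other plants, had the lowest long-read ratios of FB and S relative to CL among the 12 named families. Its 105 long sequences had 55 reads in FB, 52 in S, 1075 in CL and 870 in NL. The ratio was 0.0447-fold in S and 0.0599-fold in FB relative to CL per clean read, and 0.184-fold and 0.0780-fold relative to matched reads, lower on both scales. Leaves at the low temperature and untreated leaves were close, at 1.20-fold in CL relative to NL per clean read, which became 0.692-fold relative to matched reads. By reads, 96.5% of these sequences carried extra bases at the 3′ end alone.

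The 21 nt reads of miR167 had another pattern: 2586 in FB, 3726 in S, 2116 in CL and 1576 in NL. Most of the 21 nt reads in FB and S were the form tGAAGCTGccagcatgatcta, with 2305 reads in FB, 3490 in S, 658 in CL and 364 in NL. The long forms printed above do not hold that sequence. They hold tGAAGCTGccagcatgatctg, which had 86 reads in FB, 10 in S, 784 in CL and 617 in NL. The 22 nt form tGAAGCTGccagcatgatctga, the longest abundant form, had 2423 reads in FB, 492 in S, 33605 in CL and 30209 in NL. So the long forms and the 22 nt form were both low in FB and S, and the most read 21 nt form was not.

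For each 100 reads of 22 nt, miR167 had 1.78 long reads in FB, 5.94 in S, 2.39 in CL and 2.19 in NL. The odds of a long against a 22 nt read were 1.09 (0.998–1.20) in CL relative to NL, 2.48 (1.83–3.31) in S relative to CL and 0.744 (0.556–0.979) in FB relative to CL. Against 21 nt reads the odds were 0.0275 in S and 0.0419 in FB relative to CL. The most read long form, tgaagctgccagcatgatctgAA, had 12 reads in FB, 4 in S, 286 in CL and 229 in NL. Per 100 reads of the 22 nt form shown above it stood at 0.495 in FB, 0.813 in S, 0.851 in CL and 0.758 in NL, and the intervals of the odds between libraries all held 1. The AT form tgaagctgccagcatgatctgAT had 15 reads in FB, 1 in S, 253 in CL and 223 in NL, and the TT form tgaagctgccagcatgatctgTT had 8 in FB, 4 in S, 112 in CL and 104 in NL. Both were thus rare in FB and S, as the AA form was. So was the TA form tgaagctgccagcatgatctgTA, with 0 reads in FB, 4 in S, 51 in CL and 35 in NL. The TTC form tgaagctgccagcatgatctgTTC, with 11 reads in FB, 16 in S, 213 in CL and 148 in NL, differed in stalks, where its odds against the 22 nt sequence that it begins with were 2.35 (1.30–3.97) relative to CL.

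**Figure D4:**
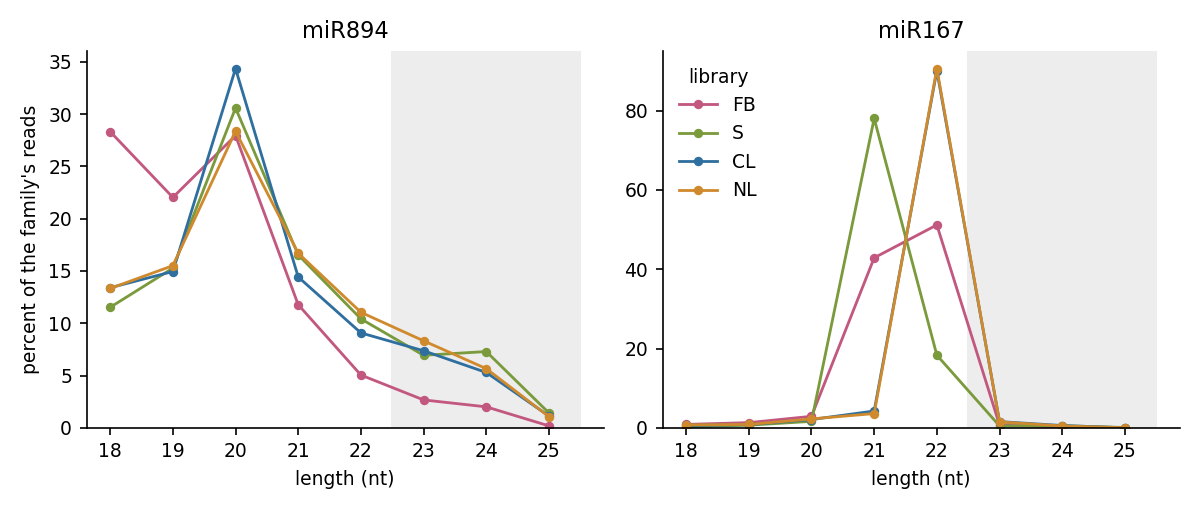
Share of each library's reads of the miR894 family (left) and the miR167 family (right) by sequence length, 18 to 25 nt, for FB, S, CL and NL, with 23 to 25 nt shaded. In miR894 the FB line is highest at 18 nt (28.3%), and in miR167 the FB, CL and NL lines are highest at 22 nt and the S line at 21 nt.

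The long forms of miR528, a monocot family that acts on mRNAs of copper-binding proteins, were higher in CL than in NL. They had 80 reads in FB, 19 in S, 176 in CL and 41 in NL. That gave 4.18-fold (2.96–6.02) in CL relative to NL per clean read and 2.40-fold relative to matched reads, higher on both scales. In S and FB relative to CL they were 0.0997-fold and 0.532-fold per clean read, and 0.411-fold and 0.693-fold relative to matched reads. Its 21 nt reads, 105242 in FB, 8660 in S, 151607 in CL and 44211 in NL, were the most abundant of all named families in FB, CL and NL, though not in S, and long reads were 0.0947% of the family. The odds of a long against a 21 nt read were 1.25 in CL relative to NL, 1.89 in S relative to CL and 0.655 in FB relative to CL. The form tggaaggggcatgcagaggagAT had 30 reads in FB, 9 in S, 68 in CL and 18 in NL and was 3.68-fold (2.16–6.57) in CL relative to NL, while the 21 nt form inside it was 3.34-fold. The interval thus held the ratio of this 21 nt form. The 22 nt form that the AT form begins with was 6.12-fold in CL relative to NL. The odds of the AT form against that 22 nt form were 0.601 (0.349–1.08), an interval that held 1. The AA form of miR528, tggaaggggcatgcagaggagAA, had 20 reads in FB, 3 in S, 34 in CL and 6 in NL.

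The long forms of miR172, which represses AP2-like mRNAs and promotes flowering in Arabidopsis, were highest in stalks. They had 52 reads in FB, 149 in S, 9 in CL and 21 in NL. They were 15.3-fold (7.84–34.1) in S and 6.77-fold (3.30–15.6) in FB relative to CL per clean read, and 63.1-fold and 8.80-fold relative to matched reads, higher on both scales. With 30 reads over CL and NL, that pair was too thin for a ratio to be read. The main 21 nt form had 6790 reads in FB, 14719 in S, 339 in CL and 221 in NL, with FB, S and CL in the same order. It stood at 1075 RPM in FB, 1836 in S and 45.8 in CL, against 8.23, 18.6 and 1.22 for the long forms. The gap between CL and the flower organs was thus wider for this form than for the long forms. All 21 nt reads of the family numbered 12680 in FB, 18097 in S and 6001 in CL. Against these, the odds of a long read were 5.49 (2.81–12.2) in S and 2.73 in FB relative to CL.

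A single 24 nt form gave 73 of the 149 long reads in S. This form, AATgagaatcttgatgatgctgca, had 6 reads in FB, 73 in S and 0 in both CL and NL. With CL set at the floor of 3 reads it was 22.5-fold in S relative to CL, and the interval without the floor began at 17.8. The 21 nt sequence it holds, gAGAATCTtgatgatgctgca, had 22 reads in FB, 144 in S, 0 in CL and 1 in NL, and shares 20 bases with the main 21 nt form, which starts 1 base later. By reads, 68.8% of the long miR172 forms were extended at the 5′ end alone, with 28 reads in FB, 118 in S, 3 in CL and 10 in NL. A second 24 nt form, 1 base further along and ending with the whole main 21 nt form, had 3 reads in FB, 21 in S and 0 in CL and NL.

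Other families of the vegetative to flowering phase change differed from miR172. The long forms of miR156, which represses SPL mRNAs and holds plants in the juvenile phase, had 48 reads in FB, 39 in S, 51 in CL and 53 in NL, or 7.60, 4.87, 6.89 and 7.36 RPM. Its 21 nt reads, 3839 in FB, 731 in S, 20030 in CL and 7442 in NL, were far more uneven, so the odds of a long against a 21 nt read were 20.9 in S and 4.91 in FB relative to CL. These odds leave out the reads of 20 nt, which were 48.0% of the family's reads in FB, 73.4% in S and 32.0% in CL. However, 73.3% of the long miR156 reads held no 21 nt form of the family. Its most read long form, tgacagaagatagagattgagcat, was one of these and had 5 reads in FB, 3 in S, 2 in CL and 6 in NL. All long miR156 reads were 0.706-fold (0.453–1.09) in S relative to CL per clean read and 2.91-fold (1.87–4.51) relative to matched reads. In CL relative to NL they were 0.937-fold and 0.539-fold (0.360–0.807). The family miR535, close to miR156 in sequence, had 46 long reads in FB, 20 in S, 72 in CL and 43 in NL, with 81.2% extended at the 3′ end. It was 1.63-fold in CL relative to NL and 0.256-fold in S relative to CL per clean read, but 0.938-fold (0.634–1.40) and 1.06-fold (0.611–1.76) relative to matched reads, where both intervals held 1. Its form tgacaacgagagagagcacgcTT had 23 reads in FB, 11 in S, 35 in CL and 27 in NL.

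A pair of families that act on the small RNA machinery itself also had long forms. The family miR162, which acts on the DICER-LIKE1 mRNA, had 66 long reads in FB, 30 in S, 39 in CL and 39 in NL. It was 1.98-fold (1.31–3.03) in FB relative to CL per clean read and 2.58-fold relative to matched reads. The odds of a long against a 21 nt read were 1.43 (0.932–2.22) in FB relative to CL, an interval that held 1. Against 22 nt reads they were 2.53 (1.41–4.57). Long reads were 7.82% of the family, far above the 0.0783% of miR168, and 99.4% of them were extended at the 3′ end. The form tcgataaacctctgcatccggTT had 44 reads in FB, 14 in S, 23 in CL and 26 in NL and was 2.24-fold (1.32–3.89) in FB relative to CL. The 21 nt form inside it was 1.36-fold, a ratio that this interval held. The family miR168, which acts on ARGONAUTE1 mRNA, had 24 long reads in FB, 37 in S, 38 in CL and 38 in NL, divided almost evenly between the 3′ class (46.7%) and the 5′ class (46.0%). Its most read long form, AAttcgcttggtgcaggtcggga, belonged to the 5′ class and had 10 reads in FB, 8 in S, 15 in CL and 10 in NL. All long miR168 reads were 0.899-fold in S relative to CL per clean read and 3.71-fold (2.29–5.99) relative to matched reads.

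The last 4 named families differed in make-up. The match miR1023, a name first given in Physcomitrella, had 61 long reads in FB, 73 in S, 75 in CL and 50 in NL, 76.2% of all its reads, and 99.2% of these held no 21 nt form. For miR1023, S relative to CL was 0.899-fold per clean read and 3.71-fold (2.65–5.19) relative to matched reads. Its most read form, agaagacattgaagagagagcata, had 22 reads in FB, 33 in S, 24 in CL and 14 in NL. A second form, 1 base further upstream, shared 23 bases with it, and 12 of the 70 long sequences, with 62.2% of the reads, shared at least 18 bases in a row with it. The match miR1171, a name first given in the green alga Chlamydomonas, had 19 long reads in FB, 38 in S, 54 in CL and 25 in NL, or 93.2% of its reads. It was 0.650-fold in S relative to CL per clean read, with an interval that held 1, and 2.68-fold (1.72–4.14) relative to matched reads. The form tgtggagaggagtggagaggagtg, a run of near repeats, had 3 reads in FB, 12 in S, 17 in CL and 5 in NL.

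The match miR2910, whose sequence resembles part of a ribosomal RNA, had 10 long reads in FB, 25 in S, 47 in CL and 28 in NL, with 83.6% extended at the 5′ end. Its most read long form was TCTtagttggtggagcgatttgtc, with 3 reads in FB, 3 in S, 12 in CL and 9 in NL. The family was 0.249-fold in FB relative to CL per clean read and lower on both scales. In CL relative to NL it was 1.63-fold per clean read and 0.940-fold (0.577–1.56) relative to matched reads, where the interval held 1. In S relative to CL the direction turned, with 0.491-fold per clean read and 2.03-fold relative to matched reads. The family miR159, which represses GAMYB mRNAs, had 20 long reads in FB, 25 in S, 37 in CL and 20 in NL. These were spread over 84 sequences, so most of them were read once. Its most read long form, tttggattgaagggagctctgAA, had 2 reads in FB, 2 in S, 1 in CL and 0 in NL.

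**Figure D5:**
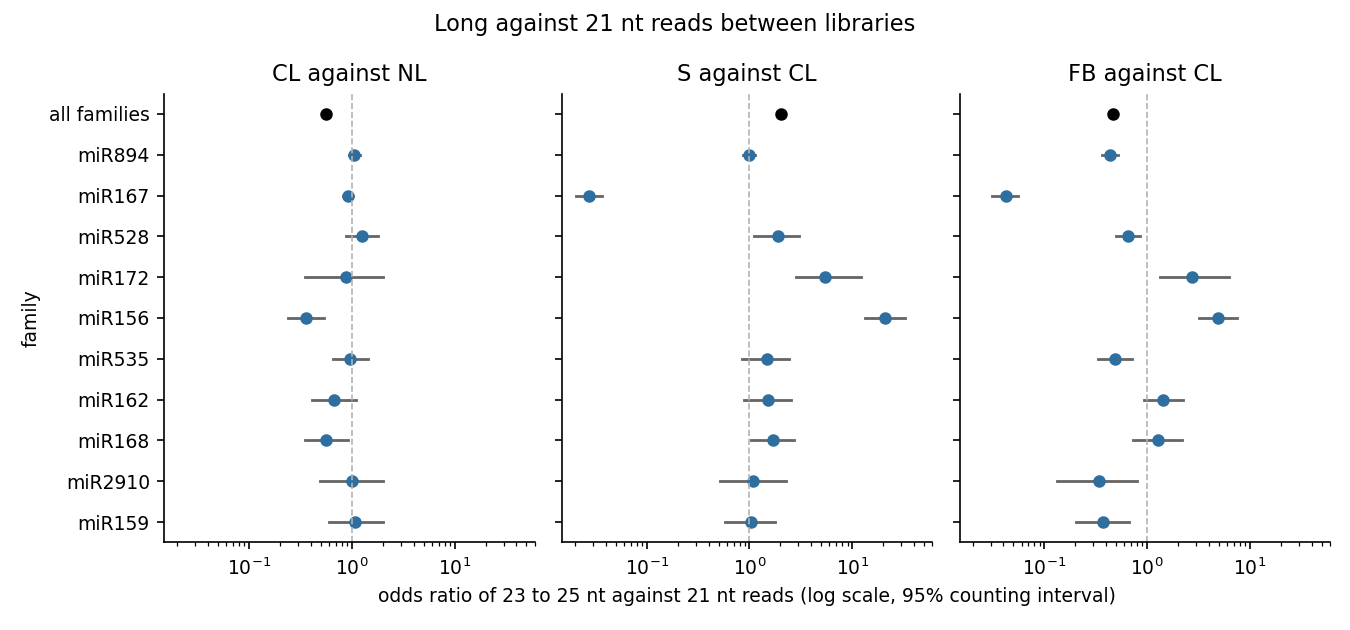
Odds ratio of long against 21 nt reads for CL relative to NL, S relative to CL and FB relative to CL (log axes, lines are 95% counting intervals, dashed line at 1), for all families together and for the named families other than miR1023 and miR1171, which are read mainly at 23 to 25 nt. In S relative to CL, miR167 lies far left at 0.0275, and miR172 (5.49) and miR156 (20.9) lie right of the line.

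Grouped by role, lists of conserved families held a part of the long reads only. Families of auxin response and organ polarity had 2170 long reads, with 78 in FB, 68 in S, 1116 in CL and 908 in NL, nearly all of them miR167. Families of phase change had 646, with 154 in FB, 218 in S, 148 in CL and 126 in NL. Copper families had 324, with 81 in FB, 21 in S, 179 in CL and 43 in NL, nearly all of them miR528. The phase change reads were most frequent in S through miR172, since the other phase change families had 102 in FB, 69 in S, 139 in CL and 105 in NL. Families of small RNA feedback had 311, those of MYB and TCP genes 107, nutrient families 55 and families of growth 17. A list labelled repeat-like had 311, of which miR1023 gave 259, and matches that resemble ribosomal or transfer RNA had 234. The label was not borne out for miR1023. Only 3 of its 70 long sequences, with 3 reads, had a 3-base word that made up over 25% of their 3-base words. A further 4844 long reads came from 216 families in none of the lists, miR894 among them.

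Sequence by sequence, few long members could be set against the rest. With at least 50 reads over both libraries, 11 long sequences were read in CL and NL, 12 in S and CL and 13 in FB and CL, and a ratio per clean read above 1.5 or below 0.667 was counted as a difference. Over all matched lengths, 45.5% of sequences were above 1.5 in CL relative to NL, and 10.2% were below. Of the 11 long sequences, 1 was above, the miR528 form with the AT end, which reached 50 reads in CL alone, and 0 were below. In S relative to CL, 7.44% of all sequences were above and 76.7% below. Of the 12 long sequences, 1 was above, the miR172 form, which passed the read limit through S alone, and 9 were below: 5 of miR167, 3 of miR894 and 1 of miR528. All 9 reached 50 reads in CL alone, and 2 of them did so in S as well.

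In FB relative to CL, 25.4% of all sequences were above and 31.4% below. Of the 13 long sequences, 1 was above, the miR162 form with the TT end, and 10 were below: 5 of miR167, 4 of miR894 and 1 of miR528. All 10 reached 50 reads in CL alone, and 2 of them in FB as well. The median ratio of the long sequences was 1.22 in CL relative to NL, 0.320 in S relative to CL and 0.211 in FB relative to CL, beside 1.40, 0.221 and 0.946 over all sequences. Lower ratios in S were thus about as frequent among long sequences as over all lengths. In FB they were more frequent, but sequences of a family overlap each other, so the 10 in FB stand for 3 families. The 3 miR894 sequences below the limit in S were above 1 relative to matched reads, at 2.14, 2.68 and 2.30. On the log2 scale the median over all sequences was 0.48 in CL relative to NL, -2.18 in S relative to CL and -0.08 in FB relative to CL, and this is the shift against which the members stand.

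The long sequences also differed from 21 nt sequences in features that the length rule did not use. U was the first base of 80.5% of 23 nt reads, 33.1% of 24 nt reads and 46.8% of 25 nt reads, against 87.6% of 21 nt reads. Over sequences, each counted once, it was 59.5%, 37.7% and 59.0%, against 66.7% at 21 nt, so the 24 nt length stood furthest from 21 nt on both counts. Among 24 nt sequences with no 21 nt form, A was the first base in 47.1% of sequences and 48.0% of reads. In the 3′ class, 96.6% of reads began with U, as the miRNA inside does. The median GC content was 45.8% over long sequences and 57.1% over 21 nt sequences.

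Long sequences had higher sums of mismatches and gaps to the known miRNA. The mismatch and gap columns were read by checking them against the paired sequences in the files, since the description deposited with the files did not hold for some other columns. A sum of 4 or 5 mismatches and gaps was found in 80.5% of long sequences and 49.3% of long reads, against 13.5% of 21 nt sequences and 0.530% of 21 nt reads. For sequences with no 21 nt form this was 95.7% of reads, so by this sum their family names rest on the weakest matches. Mismatches alone gave another order over sequences, since 34.4% of long sequences had 0 mismatches, against 5.89% of 21 nt sequences. By reads these shares were 57.8% and 74.6%. In 193 long sequences, with 3767 reads (41.8%), the known miRNA lay whole inside, and the gap column equalled the number of overhanging bases in all 193. Extra bases therefore count toward the limit on gaps, and longer extensions had less room to pass it. The higher sums of long sequences thus follow in part from their length. Only 1 long sequence, with 3 reads, was identical to a known miRNA. The seed of the matched miRNA was kept in 92.9% of reads of the 3′ class and 0.0666% of the 5′ class. That contrast follows largely from how the classes are defined. Of reads with no 21 nt form, 16.2% kept the seed.

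Families read mainly as long sequences were taken as a separate group. Of the 62 families with at least 10 long reads, 36 had over 50% of their reads at 23 to 25 nt, with 1307 long reads in all. Of these reads, 75.6% were of 24 nt and 6.73% held a 21 nt form. Families chosen in this way have few 21 nt reads, so the low share that held a 21 nt form follows in part from the choice. The long reads of these families numbered 272 in FB, 365 in S, 378 in CL and 292 in NL. Their level was 0.843-fold (0.719–0.988) in FB and 0.891-fold (0.770–1.03) in S relative to CL, and 1.26-fold (1.08–1.47) in CL relative to NL, per clean read. Relative to matched reads these became 1.10-fold (0.935–1.28), 3.68-fold (3.18–4.26) and 0.725-fold (0.621–0.848), so the direction of CL relative to NL turned. Among the 12 named families only miR1023 and miR1171 belonged to this group.

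The sequences of 23 and 24 nt that the study lists included the AA and TTC forms of miR167 described above, and the others were thin. The miR535 form tgacaacgagagagagcacgcTA had 1 read in FB, 1 in S, 1 in CL and 2 in NL. The miR854 match gatgaggaggaggaggaggaggag had 1 read in CL and 1 in NL and none in FB or S. The miR900 match tcccaggatacaataacacatga had 1 read, in S, and the miR156 match tgagagagaaagagagagagcat had 1 read, also in S. At this depth none of these 4 could be compared between libraries.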

How the data were processed

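Small RNA was cut from a gel at 20 to 25 nt and sequenced by Illumina from 4 libraries, with 1 pool each for FB, S, CL and NL. Per the study's methods and the files, the authors removed adaptors, contaminants, polyA and low-quality reads and reads under 18 nt, collapsed the rest to unique sequences, and aligned these by BLAST to miRBase 15. No BLAST version was stated in the sources used. The deposited values are whole read counts per unique sequence, not normalized. The study states sums of mismatches and gaps under 5, but the deposited tables hold sums up to 5, and all matches were kept. Some columns differed from their deposited description and were read by comparison with the sequences. Matched reads numbered 265352 in FB, 106142 in S, 404345 in CL and 226523 in NL.

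Counts were divided by each library's clean reads, as the study gives them, to give RPM. Shares have Wilson 95% intervals, ratios have exact conditional binomial 95% intervals, and an odds ratio compares long with shorter reads. A count of 0 was set against a floor of 3 reads. Differences were counted at a ratio above 1.5 or below 0.667 with at least 50 reads over both libraries. Named families had at least 100 long reads. Named sequences were the 15 most read, the most read of each named family, the 3 largest and 3 smallest ratios of each pair, and forms of 23 or 24 nt that the study lists. The members and lists were chosen with earlier results of these data known. Alternatives changed the denominator, the sequences kept, the limits and the definition of an extension. The code was tested on simulated data. Python 3.11.15, pandas 2.3.3, numpy 2.4.6, scipy 1.17.1 and matplotlib 3.10.9 were used.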

Additional observations from a re-analysis of the deposited data

Results flagged for a closer look

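Sequences of 26 and 27 nt lie above the length range described and above the gel cut. They had 9 reads in FB, 19 in S, 44 in CL and 24 in NL, each above the 3 reads that a count of 0 allows, and the cause was not tested.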

How the results depend on the processing

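Set against all matched reads, the ratio of long reads was 0.522 for FB and 2.17 for S relative to CL, and 0.629 for CL relative to NL, and set against 21 nt reads 0.469, 2.03 and 0.560, so S relative to CL and CL relative to NL both turned. With high-quality reads as the denominator FB relative to CL was 0.358. With at most 1 mismatch or gap the ratios were 0.149 (FB), 0.0520 (S) and 1.21 (CL relative to NL). With at least 2 reads per sequence FB and S were 0.343 and 0.477, with at least 10 reads 0.270 and 0.436, with 24 nt alone 0.462 and 0.775, and without miR167 0.572 and 0.766. With 23 nt alone S was 0.347, and without the most read sequence 0.485. Without miR894, a setting chosen after seeing the data, they were 0.468 (FB), 0.447 (S) and 1.23 (CL relative to NL).

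The share of long reads among matched reads in FB, S, CL and NL was 0.0162%, 0.0179%, 0.0833% and 0.120% with at most 1 mismatch or gap, 0.310%, 1.37%, 0.696% and 1.11% with at least 2 reads, 0.182%, 0.967%, 0.302% and 0.501% for 24 nt, and 0.327%, 0.989%, 0.537% and 0.756% without miR894. Without miR167 it was 0.530% in CL and 0.881% in NL.

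The odds of a long against a 21 nt read had alternatives chosen after seeing the data. Without miR894 they were 0.547 (FB relative to CL), 1.74 (S relative to CL) and 0.628 (CL relative to NL). Against 20 to 22 nt reads they were 0.535, 2.25 and 0.613, and against 22 nt reads 2.93, 11.4 and 0.940, so FB reversed. Without miR167 they were 0.672 for FB and 3.07 for S.

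The share of long sequences (and of long reads) that held a 21 nt form was 22.1% (71.7%) for forms with at least 10 reads, 25.6% (68.2%) for forms with more reads than the long sequence, 12.4% (37.5%) for the most read 21 nt form alone, 27.2% (73.9%) for forms in the same library, 35.6% (79.1%) for forms of 20 to 22 nt and 35.4% (76.8%) with 1 mismatch. In settings chosen after seeing the data it was 24.8% (41.8%) without miR894 and miR167 and 46.0% (84.9%) with at least 2 reads. In those last settings U began 51.9% and 60.7% of long reads, and 4 or 5 mismatches and gaps were found in 71.8% and 43.0%. The authors' grouping gave 85 families.

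Without miR172 as well as miR894 and miR167, a setting chosen after seeing the data, the 5′ class in S relative to CL was 0.529 in place of 1.61. Family ratios above 1.5 or below 0.667 per clean read that crossed 1 are listed first. Values are relative to matched reads and then to 21 nt reads, and some stayed within counting error of 1. In CL relative to NL, miR535 was 0.938 and 0.834, miR2910 was 0.940 and 0.836, and miR159 was 0.922 relative to 21 nt reads. In S relative to CL, miR535 was 1.06 relative to matched reads, miR1171 was 2.68 and 2.51, miR2910 was 2.03 and 1.90, and miR159 was 2.57 and 2.41. Families inside those limits per clean read crossed 1 as well. Relative to matched reads, S relative to CL was 2.83 in miR894, 2.91 in miR156, 2.93 in miR162 and 3.71 in both miR168 and miR1023. In CL relative to NL, miR167 was 0.692 and miR1023 was 0.840, and in FB relative to CL miR1023 was 1.24. Of the miR894 sequences in S relative to CL, the 23 nt form TTcgtttcacgtcgggttcacca was 2.14 and 2.00, GttcgtttcacgtcgggttcacC was 2.68 and 2.51, and GTGttcgtttcacgtcgggttcacC was 2.30 and 2.15.

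With 20 in place of 50 reads, 6 and not 1 long sequences were above the limit in CL relative to NL and 1 and not 0 below, 3 and not 1 were above and 18 and not 9 below in S relative to CL, and 14 and not 10 below in FB relative to CL. With 100 reads none was above in any pair, and 7 were below in S and 7 in FB. With a limit of 2, 6 were below in S. No paired analysis was possible because each condition had 1 library. Depth limits most members, since 1418 of 1903 had a single read.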
